A study of Mus musculus with 8 samples.

Results

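Resident macrophages of the mouse kidney were picked out of single-cell transcript counts as cells with transcripts of complement C1q and of a set of 5 genes, *Slco2b1*, *Agmo*, *Abca9*, *Negr1* and *Lilra5*. A cell was a member when it held at least 2 counts of *C1qa*, *C1qb* and *C1qc* together and at least 3 counts of the 5 resident genes. Those resident counts had to be no fewer than its counts of 6 injury genes (*Mmp12*, *Mmp13*, *Plau*, *Col14a1*, *Cxcl16* and *Cd36*). It was also allowed at most 1 count of the dendritic cell genes *Cd209a* and *Clec10a*, and at most 1 of *Flt1*, *Pax5*, *Themis* and *Slc12a1*, which mark endothelium, B cells, T cells and the loop of Henle. The members were thus selected on the measured counts themselves, and the levels of these genes in them are a description. Of 120281 barcodes, 90855 had more than 300 genes, fewer than 20000 counts and less than 25% mitochondrial counts, and 8763 of those were members. A further 8414 cells met the same limits with at least 3 injury counts that outnumbered the resident counts, and these injury macrophages served as the nearest class for comparison.

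The study followed kidney leukocytes after ischemia-reperfusion injury (IRI) and asked how they differ when the kinase SYK is blocked with entospletinib. All mice were male C57BL/6. The control was kidneys of uninjured mice. The other mice had the left kidney clamped and received either vehicle (DMSO) or entospletinib from shortly before the surgery onward, and kidneys were taken at 1, 7 or 14 days. Each of the 7 conditions was 1 pool of cells from 3 mice, enriched for live leukocytes by cell sorting, so that no condition had a replicate and no test or p-value was possible. The cells of all conditions were divided over 8 sublibraries, which are technical portions of the same cells. An SD beside a value is taken over the 8 portions, and intervals are 95% intervals for counting error only. Shares are of the sorted cells and do not give numbers per kidney.

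Tissue macrophages take up dead cells and debris, present antigen on MHC class II and keep their place in an organ under the receptor for colony-stimulating factor 1. Those of the mouse kidney lie between the tubules beside capillaries, carry the fractalkine receptor CX3CR1 and make much complement C1q, the molecule that opens the classical complement pathway and tags dying cells. SYK passes on signals from Fc receptors and C-type lectins in such cells. Among the genes of the selection rule, *Slco2b1* encodes an organic anion transporter, *Agmo* the alkylglycerol monooxygenase that splits ether lipids, *Abca9* a lipid transporter of the ABC family, *Negr1* a membrane-anchored cell adhesion protein and *Lilra5* an activating immunoglobulin-like receptor.

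The stretches of 250 bases upstream of a RefSeq transcript start (assembly GRCm38.p6) are shown for 3 genes of the rule. *Slco2b1* and *Agmo* give the cells their name, and *Abca9* was the rule's resident gene detected in most members. Capitals mark the letters GAGGAA, the core bound by the macrophage factor PU.1, and TGCTGA, part of a site of the MAF family, searched on both strands.
Slco2b1, chr7:99711341-99711590, minus strand: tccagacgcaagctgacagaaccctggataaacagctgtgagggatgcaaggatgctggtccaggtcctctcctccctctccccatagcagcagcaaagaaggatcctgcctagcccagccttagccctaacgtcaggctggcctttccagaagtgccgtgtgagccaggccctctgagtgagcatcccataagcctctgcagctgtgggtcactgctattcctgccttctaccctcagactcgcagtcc
Agmo, chr12:37241389-37241638, plus strand: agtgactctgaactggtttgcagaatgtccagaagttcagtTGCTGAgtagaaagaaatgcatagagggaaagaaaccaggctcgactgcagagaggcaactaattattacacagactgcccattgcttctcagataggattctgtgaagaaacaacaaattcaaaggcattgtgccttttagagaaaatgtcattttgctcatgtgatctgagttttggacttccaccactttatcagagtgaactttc
Abca9, chr11:110168154-110168403, minus strand: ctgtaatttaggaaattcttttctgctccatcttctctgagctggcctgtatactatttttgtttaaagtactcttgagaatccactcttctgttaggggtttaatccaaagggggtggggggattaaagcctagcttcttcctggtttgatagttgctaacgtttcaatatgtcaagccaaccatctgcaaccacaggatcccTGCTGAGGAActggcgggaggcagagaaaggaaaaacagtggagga
The window of *Slco2b1* shown, the most upstream of its 3, held neither set of letters, while another of the 3 held GAGGAA. That of *Agmo* held TGCTGA once, and in that of *Abca9* the 2 overlapped. GAGGAA occurred in 23.4% and TGCTGA in 16.1% of 32544 such windows over all genes, so the matches are a description of these windows. Of the 7 marker genes given for the cells, 6 had an entry, with 9 windows in all, of which 4 held GAGGAA and 2 held TGCTGA.

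Among all members, *C1qa* was detected in 84.7%, *Abca9* in 78.4%, *Slco2b1* in 64.6%, *Negr1* in 54.8%, *Ms4a7* in 52.0%, *Lilra5* in 49.5% and *Agmo* in 41.0% of cells. The same genes were detected in between 3.88% and 11.3% of cells with fewer than 2 C1q counts. Most members held counts from several of the 5 resident genes, 30.2% from 2 genes, 34.3% from 3, 20.4% from 4 and 7.09% from all 5, while 7.98% qualified on 1 gene alone. In cells with markers of other lineages, 3 or more resident counts were seen in 0.517% of neutrophils, 1.06% of T cells and 1.35% of B cells over all conditions. By condition the share ranged from 0 of 24 to 4 of 55 (7.27%) for neutrophils, from 0 of 569 to 1.88% for T cells and from 0.262% to 4.24% for B cells. The median depth of those cells was 1559, 2210.5 and 2306 counts, against 3004 counts in the members.

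**Figure D1:**
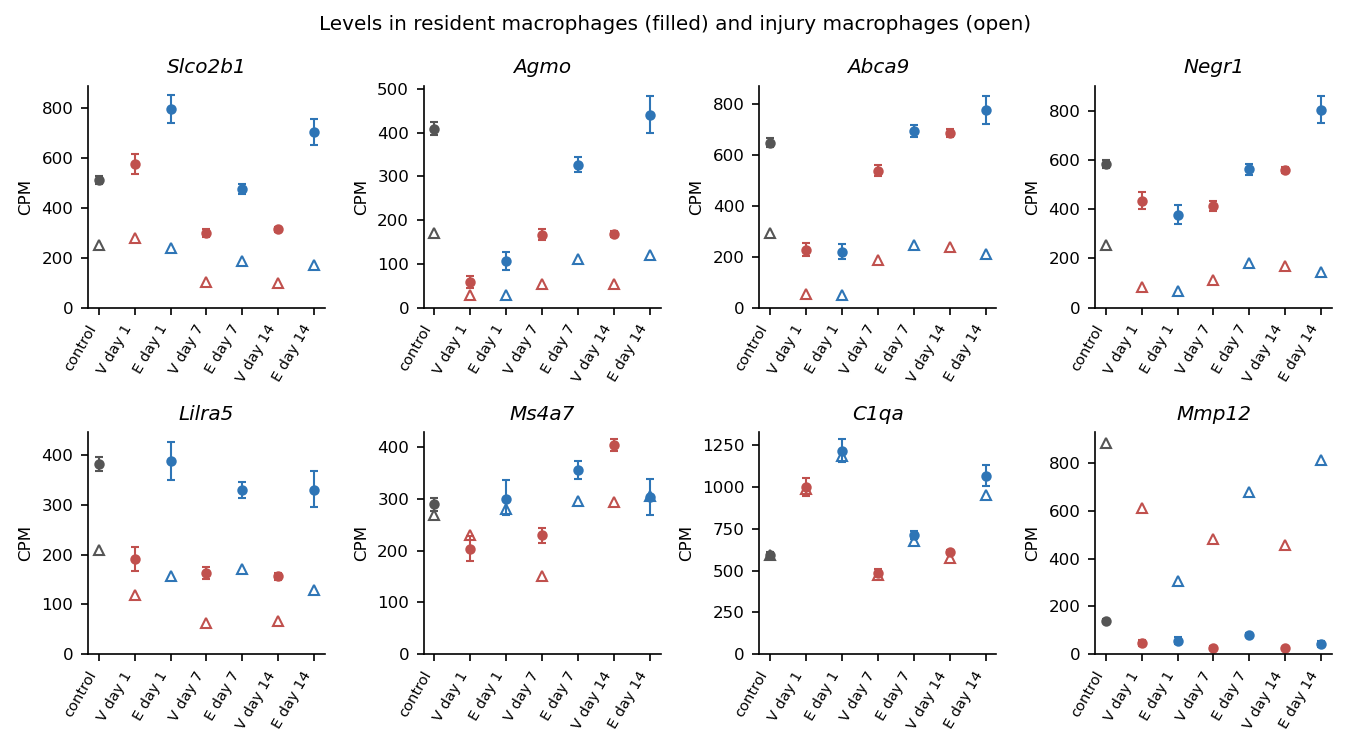
Levels of the rule genes and of Ms4a7, C1qa and Mmp12 in CPM (counts scaled to an equal total) for each condition (V, vehicle; E, entospletinib). Filled points with 95% counting intervals are resident macrophages and open triangles injury macrophages, which lay below the resident cells in every condition for the 5 resident genes and above them for Mmp12 because the rule used these genes.

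General macrophage genes were expressed in every condition. *Csf1r*, the receptor for colony-stimulating factor 1, ranged from 587 to 737 CPM over the conditions, and *Adgre1*, which encodes F4/80, from 637 CPM at vehicle day 1 to 1044 CPM at vehicle day 14. The list of 10 genes for perivascular, LYVE1-bearing macrophages was split. *Cd209f* had no count in any condition, *Lyve1*, *Folr2* and *Timd4* were at 1.34 CPM or less, and *Cd163*, the hemoglobin scavenger receptor, at 2.94 to 11.1 CPM. *Mrc1*, which encodes the mannose receptor CD206, was at 354 to 1405 CPM, and *Stab1*, a scavenger receptor, at 391 to 829 CPM. *Gas6*, a bridge to dead cells, was at 33.0 to 72.8 CPM, *Pf4*, a chemokine, at 10.2 to 105 CPM and *Cbr2*, a carbonyl reductase, at 4.80 CPM or less. Of the list, 1 of 3, 0 of 2 and 2 of 3 compared genes were higher by 2-fold in vehicle than control at days 1, 7 and 14, with medians of 0.90, 0.76 and 1.21. The shares higher over all genes compared were 6.21%, 2.37% and 2.6%. Against injury macrophages the 5 resident genes led, as the rule requires, with median log2 differences over the 7 conditions of 1.74 for *Negr1*, 1.51 for *Agmo*, 1.46 for *Abca9*, 1.38 for *Slco2b1* and 1.15 for *Lilra5*. Among the next genes outside the rule were *Gm13710* at 1.00, *Adam22*, a synaptic adhesion protein of the ADAM family, at 0.96 and *Cyp27a1*, the sterol 27-hydroxylase, at 0.82, each higher in the resident cells in all 7 conditions. *Tnip3*, a binding partner of the NF-κB inhibitor A20, was lower in the resident cells by 2.07 and *Fn1*, fibronectin, by 1.97, both lower in all 7 conditions. These differences are between classes cut from the same counts and carry no test.

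Many members lay close to the limit of the rule. Exactly 3 resident counts were held by 1440 members (16.4%), and 1553 cells that met every other condition fell just outside with 2 counts. A further 661 members had as many injury as resident counts, and 500 cells were left out by 1 injury count. The share of members at exactly 3 counts was 7.72% in control, 20.4%, 14.4% and 17.3% at vehicle days 1, 7 and 14, and 30.2%, 11.4% and 41.4% at entospletinib days 1, 7 and 14. The members are a range cut from a count, and the largest share at its limit was in the pool with the shallowest members. Members had a median of 3017 counts in control, 4143.5, 4492.5 and 3157 at the vehicle days and 2343.5, 3005 and 1282 at the entospletinib days. Over all cells of entospletinib day 14 the median was 933 counts, the lowest of the conditions. Across sublibraries, 223 members shared a well combination with another member, 111 combinations in all.

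Resident macrophages made up 18.3% of control cells (95% interval 17.5 to 19.0, SD 1.11 over 8 sublibraries; 2046 of 11205 cells). At day 1 after IRI with vehicle their share was 1.31% (1.16 to 1.46, SD 0.195; 294 of 22489 cells), at day 7 it was 13.2% (12.4 to 14.1, SD 0.581; 806 of 6110) and at day 14 it was 18.5% (17.9 to 19.1, SD 1.14; 3191 of 17261). The vehicle share was thus lowest at day 1, where it was 0.0716 of the control share over the pooled sublibraries and below control in all 8, and at day 14 it stood above control in 4 of 8 sublibraries, within their spread. With entospletinib the shares were 2.73% at day 1 (2.47 to 3.02, SD 0.820; 384 of 14041), 17.9% at day 7 (17.0 to 18.7, SD 1.17; 1359 of 7605) and 5.62% at day 14 (5.22 to 6.05, SD 0.887; 683 of 12144).

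Set against vehicle on the same day, the share with entospletinib was 2.09-fold higher at day 1 (log2 1.06, counting interval 0.84 to 1.29, SD 0.48), 1.35-fold higher at day 7 (log2 0.44, 0.31 to 0.57, SD 0.14) and 0.304-fold at day 14 (log2 -1.72, -1.84 to -1.60, SD 0.24). All 8 sublibraries had the same direction on each day. The day 14 value depended on the depth at which cells were compared. Thinned to 2000 counts it was -1.33 (-1.65 to -1.02), lower in 8 of 8 sublibraries, with 1488 entospletinib cells and 10226 vehicle cells deep enough to enter. With cells thinned to 1000 counts and the rule applied again, the shares were 4.37% with vehicle and 4.04% with entospletinib at day 14, a log2 difference of -0.11 (-0.34 to 0.11) with 5 of 8 sublibraries lower, and 6597 of the entospletinib cells were too shallow to enter, against 2674 of the vehicle cells. Thinned to 500 counts, the day 14 difference was 0.57, higher with entospletinib in 6 of 8 sublibraries. At day 7, 948 of the vehicle cells and 0 of the entospletinib cells held fewer than 1000 counts. Among the deeper cells, before thinning, members were 803 of 5162 with vehicle and 1359 of 7605 with entospletinib. The part of this unlike depth in the day 7 value was not tested. The day 7 difference became larger on thinning, 4.94% against 1.61% (log2 1.62, 1.27 to 1.98), in all 8 sublibraries. At day 1 the thinned shares were 1.17% with entospletinib and 0.529% with vehicle (log2 1.14, 0.77 to 1.52), again in all 8. The thinned share in control was 5.15%. Members after thinning to 1000 counts numbered 563 in control, 109, 83 and 637 at vehicle days 1, 7 and 14, and 139, 376 and 224 at entospletinib days 1, 7 and 14. Gene values given below for thinned members rest on these cells and on 1 random draw.

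**Figure D2:**
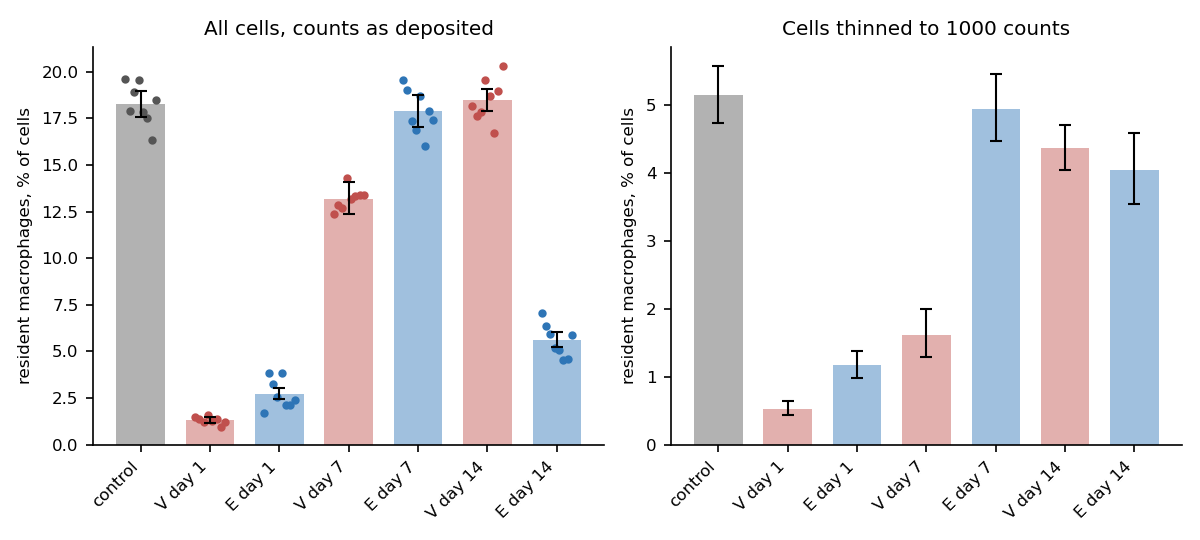
Share of resident macrophages among cells past the limits (percent, y axis) by condition (V, vehicle; E, entospletinib), left over all these cells and right over those with at least 1000 counts, each thinned to 1000 (at day 14, 6597 entospletinib and 2674 vehicle cells were left out). Bars show the pooled share, whiskers its 95% counting interval and points, on the left only, the 8 sublibraries. The lowest bar is vehicle day 1 on both sides, 1.31% and 0.529%, and the bar of entospletinib day 14 stands at 5.62% on the left and at 4.04%, beside 4.37% with vehicle, on the right.

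The share also depends on which other cells were in the suspension. Among cells with 2 or more C1q counts, members were 54.2% in control, 7.77%, 43.2% and 46.3% at vehicle days 1, 7 and 14, and 9.38%, 55.5% and 28.2% at entospletinib days 1, 7 and 14. On this base the day 1 difference between entospletinib and vehicle was 0.27 on the log2 scale (0.05 to 0.50), with 5 of 8 sublibraries higher. With the base taken after thinning it was 0.01 (-0.36 to 0.39). At day 7 the differences were 0.36 and 1.24, and at day 14 they were -0.71 (-0.83 to -0.59) and, thinned, 0.26 (0.04 to 0.49), so the direction turned. The injury macrophages, for comparison, were 9.42% of control cells, 9.92%, 8.17% and 9.18% at the vehicle days and 15.9%, 7.78% and 1.80% at the entospletinib days. At vehicle day 1, 920 cells had 3 or more resident counts but more injury counts, against 294 members. When the comparison with injury counts was dropped, the day 1 difference between entospletinib and vehicle was 0.24. Over all C1q cells within the limits, whatever their resident counts, the 5 resident genes together were at 1952 CPM in control, 487, 955 and 1260 CPM at vehicle days 1, 7 and 14, and 584, 1732 and 1523 CPM at entospletinib days 1, 7 and 14. Fewer resident macrophages and fewer resident transcripts in each macrophage cannot be told apart here.

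The 5 resident genes did not move as one within the members. *Agmo* was at 409 CPM in control and 58.0, 166 and 168 CPM at vehicle days 1, 7 and 14, while entospletinib cells held 106, 327 and 441 CPM. *Lilra5* was at 382 CPM in control, 191, 163 and 156 CPM in the vehicle pools, and 387, 329 and 330 CPM in the entospletinib pools. *Slco2b1* was at 510 CPM in control, 574, 297 and 314 CPM in the vehicle pools, and 794, 475 and 702 CPM in the entospletinib pools. Among the members those 3 genes were higher with entospletinib than with vehicle on every day. *Abca9* was at 647 CPM in control, 225, 537 and 684 CPM in the vehicle pools, and 219, 692 and 773 CPM in the entospletinib pools. *Negr1* was at 584 CPM in control, 435, 412 and 561 CPM in the vehicle pools, and 379, 563 and 805 CPM in the entospletinib pools. The rule selects on these counts, and 41.4% of the members of entospletinib day 14 lay at its limit. Among members of 1000 to 3000 counts the day 14 differences were 0.75 for *Agmo*, 0.48 for *Lilra5* and 0.52 for *Slco2b1*, on the log2 scale relative to the median gene. Without a cut on resident counts, over all C1q cells, *Agmo* was at 112 CPM in the vehicle pool and 215 CPM in the entospletinib pool at day 14, and *Lilra5* at 111 and 182 CPM. *Slco2b1* over the same cells was at 210 and 358 CPM. The day 1 differences did not hold for each gene once these cells were thinned to 1000 counts. *Agmo* was then at 359 CPM in control, 37.1, 108 and 135 CPM in the vehicle pools and 36.1, 273 and 221 CPM in the entospletinib pools. *Slco2b1* was at 360, 232 and 260 CPM against 329, 440 and 356 CPM, and *Lilra5* at 151, 123 and 131 CPM against 186, 308 and 187 CPM.

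Comparisons over all genes used counts summed over the members of a condition. A gene was compared when its mean over both conditions was at least 50 CPM, and it is called higher or lower here when its log2 ratio differed from that of the median gene by at least 1, that is, by 2-fold. All log2 differences below are relative to the median gene. Vehicle against control differed most at day 1. At that day 6.21% of 3591 genes were higher and 5.18% lower, at day 7 2.37% of 3162 were higher and 1.36% lower, and at day 14 2.6% of 3311 were higher and 1.75% lower. Entospletinib against vehicle gave fewer, 0.673% higher and 1.45% lower of 3715 genes at day 1, 0.187% higher and 1.49% lower of 3213 at day 7, and 1.05% higher and 1.26% lower of 3346 at day 14. In counts these were 25 higher and 54 lower genes at day 1, 6 and 48 at day 7 and 35 and 42 at day 14. The counts include genes that the rule used to choose the members. Among the genes higher with entospletinib these were 1 resident gene at day 1, 2 injury genes at day 7 and 3 resident genes at day 14. Among those lower in vehicle than control they were 3 resident and 2 injury genes at day 1, 1 and 2 at day 7, and 2 and 3 at day 14. Under edgeR's TMM scaling, where the median gene moved by -0.15, the day 14 split was 13 higher and 77 lower. The 3 vehicle days share 1 control pool, and each vehicle pool stands in both kinds of comparison, so the values of the 2 kinds are given side by side and not as independent of each other.

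The study names *Tgfbr1*, *Arhgap22* and *Cx3cr1* for resident macrophages, and all 3 were higher with entospletinib than with vehicle on every day. *Tgfbr1*, a receptor for transforming growth factor β, was at 2923 CPM in control, 1446, 867 and 994 CPM at vehicle days 1, 7 and 14, and 1869, 2048 and 1687 CPM at entospletinib days 1, 7 and 14. Every injured pool lay below control, and on each day the entospletinib pool lay above the vehicle pool. The differences of entospletinib from vehicle were 0.47 (SD 0.40, 7 of 8 sublibraries), 0.95 (SD 0.23, 8 of 8) and 0.71 (SD 0.19, 8 of 8), short of 2-fold. At day 1 the value was -0.11 among members of 1000 to 3000 counts. *Arhgap22*, which encodes a GTPase-activating protein, showed a like order, with 1229 CPM in control, 803, 466 and 579 CPM in the vehicle pools, and 1095, 856 and 900 CPM in the entospletinib pools. Its differences were 0.54, 0.59 and 0.59, each in 8 of 8 sublibraries, and 0.11, 0.57 and 0.34 among members of 1000 to 3000 counts. *Cx3cr1*, the fractalkine receptor, was at 697 CPM in control, 764, 681 and 948 CPM in the vehicle pools, and 1549, 1129 and 1278 CPM in the entospletinib pools. It was the one of the 3 to pass 2-fold, at day 1 (1.12, SD 0.28, 8 of 8), and its differences at days 7 and 14 were 0.44 and 0.38. In members of 1000 to 3000 counts the day 1 value was 0.96, and in cells thinned to 1000 counts it was 0.63. Of the 8 or 9 genes of the whole resident kidney macrophage list that were compared on a day, *Cx3cr1* was the only one to pass 2-fold between entospletinib and vehicle.

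**Figure D3:**
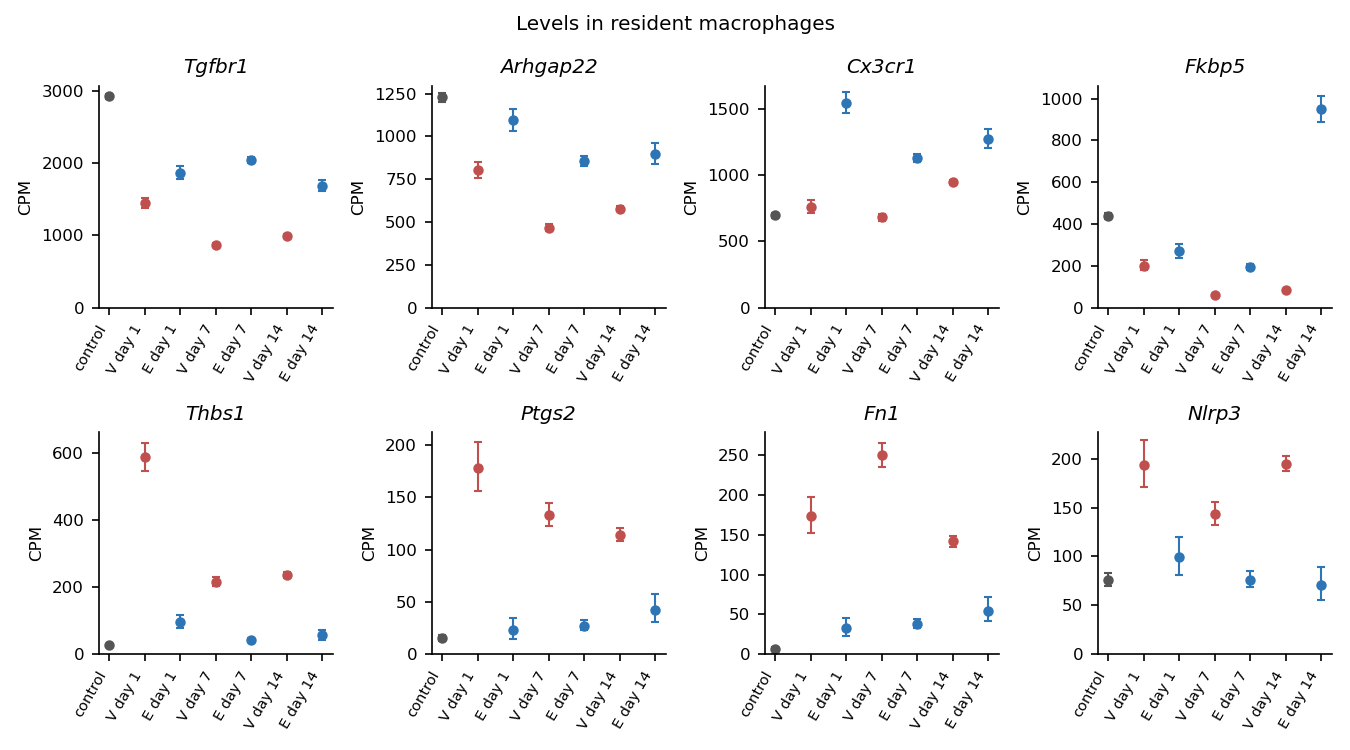
Levels in CPM of 8 genes in resident macrophages by condition (V, vehicle; E, entospletinib), with 95% counting intervals, each panel from 0. Tgfbr1, Arhgap22 and Fkbp5 were lower in every vehicle pool than in control, and Thbs1, Ptgs2, Fn1 and Nlrp3 higher in every vehicle pool than in control and in the entospletinib pool of the same day; with cells thinned to 1000 counts Nlrp3 was not higher at vehicle day 7 than in control (log2 -0.11).

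Among genes that averaged at least 50 CPM and agreed over all 8 sublibraries at day 14, a glucocorticoid response gene had the largest positive difference between entospletinib and vehicle at days 7 and 14. *Fkbp5*, a co-chaperone of the glucocorticoid receptor and a standard readout of glucocorticoid signaling, was at 437 CPM in control, 201, 58.2 and 82.0 CPM at vehicle days 1, 7 and 14, and 269, 194 and 949 CPM at entospletinib days 1, 7 and 14. The differences of entospletinib from vehicle were 0.52 (SD 0.35), 1.44 (SD 0.29) and 3.48 (SD 0.26), all in 8 of 8 sublibraries, which at day 14 the choice of leading genes required. Between its lowest and highest value over the other processing settings the day 14 difference stayed between 3.05 and 3.54. In injury macrophages *Fkbp5* was at 63.3 CPM in the vehicle pool and 511 CPM in the entospletinib pool at day 14, so the injury cells held the same order. *Zbtb16*, the zinc finger gene known as PLZF, was at 337 CPM in control, 179, 131 and 114 CPM in the vehicle pools, and 248, 231 and 358 CPM in the entospletinib pools, with differences of 0.57, 0.53 and 1.60. *Tsc22d3*, which encodes the glucocorticoid-induced leucine zipper GILZ, was at 101 CPM in control, 55.8 CPM at vehicle day 14 and 144 CPM at entospletinib day 14 (1.32, 8 of 8). Over all genes compared, 0.673%, 0.187% and 1.05% were higher by 2-fold with entospletinib at days 1, 7 and 14. Of the compared genes of the glucocorticoid list, 0 of 5 were higher by 2-fold at day 1, 1 of 5 at day 7 and 3 of 6 at day 14, and none was lower. *Per1*, *Nr3c1*, which encodes the glucocorticoid receptor, and *Dusp1* were the other 3 at day 14, with differences of -0.25, 0.04 and -0.09. The list's medians were 0.15, 0.32 and 0.68.

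*Ccnd3*, cyclin D3, followed a similar order outside that list. It was at 897 CPM in control, 185, 219 and 426 CPM in the vehicle pools, and 195, 507 and 1256 CPM in the entospletinib pools. Vehicle pools were all below control, and entospletinib day 14 was above it. The differences of entospletinib from vehicle were 0.17 at day 1, 0.92 at day 7 and 1.51 at day 14, the last 2 in 8 of 8 sublibraries. *Atp1b1*, the β1 subunit of the sodium pump, differed by 1.05 at day 7 and 1.39 at day 14, from 28.6 to 72.5 CPM and from 33.7 to 91.0 CPM. These were 0.48 and 0.74 in members of 1000 to 3000 counts. The proximal tubule markers moved with these pools. Summed over 6 markers, among them *Lrp2* and *Slc34a1*, they were at 251 CPM in control, 53.5, 30.5 and 48.4 CPM in the vehicle pools, and 38.4, 102 and 208 CPM in the entospletinib pools in the members. Their part in the *Atp1b1* result was not tested.

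*Thbs1*, *Ptgs2* and *Fn1* were lower with entospletinib than with vehicle on all 3 days. Ranked by the smallest of the 3 differences, they led the leading genes that averaged at least 50 CPM in the comparison of every day. At day 14 alone *Il1r2* (-1.63) lay below *Ptgs2* and *Fn1*. *Thbs1*, the matrix protein thrombospondin 1, was at 26.6 CPM in control, 588, 216 and 236 CPM at vehicle days 1, 7 and 14, and 97.0, 42.3 and 55.6 CPM with entospletinib. The differences were -2.50 (SD 1.46), -2.64 (SD 0.88) and -2.12 (SD 1.12), in 8 of 8 sublibraries each, which at day 14 the choice of leading genes required. Sublibraries differed widely in it. Among members of 1000 to 3000 counts the differences were -1.61, -0.69 and -1.75, so the day 7 value was short of 2-fold there. Thinned to 1000 counts, the day 1 value was -0.93. *Ptgs2*, which encodes the prostaglandin synthase COX-2, was at 15.6 CPM in control, 179, 134 and 114 CPM in the vehicle pools, and 23.1, 27.2 and 42.5 CPM in the entospletinib pools. Its differences of -2.83, -2.58 and -1.46 were -1.94, -0.76 and -0.77 among members of 1000 to 3000 counts, and at day 14 the sign turned on thinning to 1000 counts (0.23). *Fn1* was at 6.81 CPM in control, 174, 250 and 142 CPM in the vehicle pools, and 32.7, 38.0 and 54.6 CPM in the entospletinib pools, with differences of -2.30 (SD 1.85), -3.01 (SD 2.38) and -1.42 (SD 0.90). In the depth-limited members they were -1.68, -2.07 and -0.90. Injury macrophages had the same order, for *Thbs1* 918, 491 and 381 CPM in the vehicle pools, and 189, 102 and 74.5 CPM in the entospletinib pools.

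**Figure D4:**
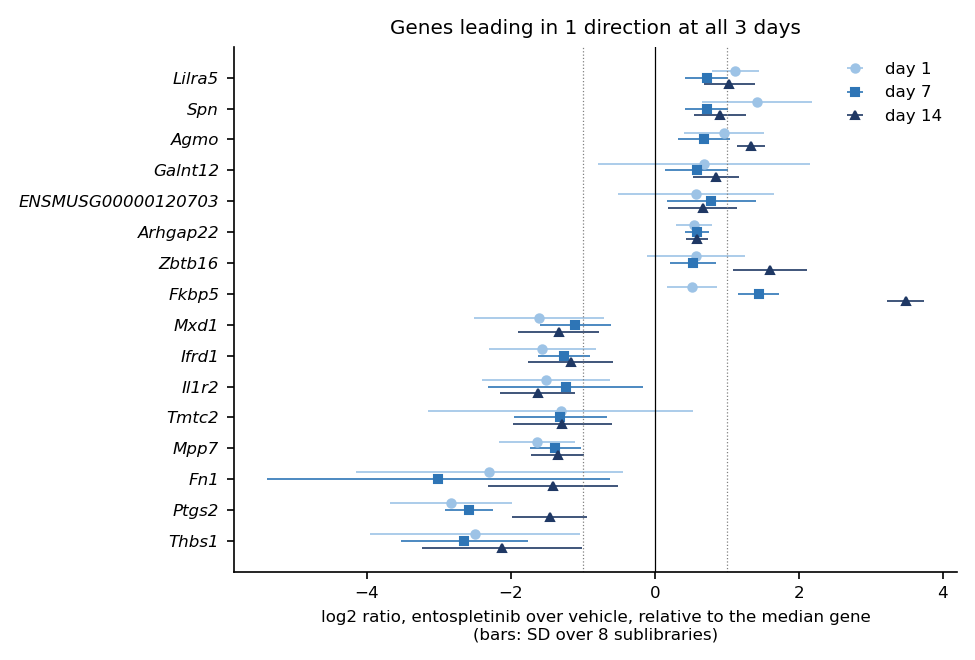
The 16 leading genes, among those compared on every day, with a difference in 1 direction at all 3 days between entospletinib and vehicle in resident macrophages. Only genes with the same direction in all 8 sublibraries at day 14 could enter. Values are log2 ratios relative to the median gene, with SD over 8 sublibraries, and dotted lines mark 2-fold. Fkbp5 reached 3.48 at day 14, and Thbs1 lay at -2.50, -2.64 and -2.12, with wide bars; Lilra5 and Agmo are genes of the selection rule.

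The next 5 genes lower on all 3 days, among those compared on every day, were *Mpp7* (-1.64, -1.38 and -1.35), *Tmtc2* (-1.31, -1.31 and -1.28), *Il1r2* (-1.51, -1.24 and -1.63), *Ifrd1* (-1.56, -1.26 and -1.17) and *Mxd1* (-1.61, -1.11 and -1.33). *Il1r2* encodes the decoy receptor for interleukin 1 and *Mxd1* a partner of MAX that opposes MYC. In CPM, *Il1r2* stood at 46.9 in control, 235, 126 and 158 in the vehicle pools, and 76.9, 65.4 and 52.6 in the entospletinib pools. Without cells marked as doublets its differences at days 7 and 14 were -0.51 and -0.11. In members of 1000 to 3000 counts *Mpp7* differed by -0.73, -0.60 and -0.85, *Ifrd1* by -0.95, -0.73 and -0.84, and *Mxd1* by -0.20 at day 1, all short of 2-fold. *Il1r2* was at -0.61, -1.96 and -0.67 there, and *Tmtc2* at -1.07, -1.26 and -0.68. The 8 leading genes among those higher on all 3 days, none by 2-fold on each, were *Lilra5*, *Spn*, *Agmo*, *Galnt12*, *Arhgap22*, *Zbtb16*, *Fkbp5* and an unnamed gene, ENSMUSG00000120703. *Lilra5* and *Agmo* are genes of the selection rule, so that their values are a description. *Spn*, which encodes the sialoprotein CD43, was at 120 CPM in control, 82.1, 40.1 and 44.6 CPM in the vehicle pools, and 206, 80.9 and 85.9 CPM in the entospletinib pools (1.42, 0.72 and 0.90, each in 8 of 8). Its day 1 difference was 0.69 in the depth-limited members.

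Further genes led on single days, several of them under the mean of 50 CPM on another day and so not compared there. At day 7, *Tgm2*, transglutaminase 2, was at 89.7 CPM in the vehicle pool and 12.7 CPM in the entospletinib pool (-3.11), and *Slc7a11*, the cystine transporter, at 92.0 and 14.6 CPM (-2.94). Among members of 1000 to 3000 counts these were -1.06 and -1.48, and *Slc7a11* was at -0.99 without cells marked as doublets. At day 14, *Nr4a3*, a nuclear receptor of the immediate early kind, was at 214 CPM in the vehicle pool and 51.6 CPM in the entospletinib pool (-2.09), *Cd38*, an NAD-consuming enzyme, at 97.3 and 29.3 CPM (-1.76) and *Icam1*, an adhesion molecule, at 95.1 and 27.3 CPM (-1.83). *Cd80*, a costimulatory ligand, was at 81.4 and 21.1 CPM at day 1 (-1.82) and at 81.9 and 25.3 CPM at day 14 (-1.72). In the depth-limited members these were 0.67 and -0.93, so that the day 1 sign turned. Most of these genes were lower on the other days too, also where they were under 50 CPM on average. For genes that led at day 1 or 7, such as *Tgm2* and *Slc7a11*, a lower value at day 14 was part of the choice. *Nr4a3* differed by -2.88 and -2.13 at days 1 and 7, *Cd38* by -1.11 and -1.72 on those days, *Cd80* by -1.53 at day 7, *Tgm2* by -1.08 and -2.17 at days 1 and 14 and *Slc7a11* by -1.31 and -2.45 at days 1 and 14. *Hdc*, histidine decarboxylase, which neutrophils and basophils also express, was at 173 CPM in the vehicle pool and 47.1 CPM in the entospletinib pool at day 1 (-1.77), and without cells marked as doublets the difference was -0.37. *Mertk*, the receptor for dying cells, was at 138 and 49.0 CPM at day 1 (-1.39, 7 of 8; -0.71 in the depth-limited members) and at 283 and 341 CPM at day 14 (0.22).

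Some inflammatory genes were higher in vehicle pools than in control and lower with entospletinib than with vehicle, while most of those compared between the treatments stayed within 2-fold. Of the compared genes, 6 of 12, 4 of 10 and 4 of 11 were higher by 2-fold in vehicle than control at days 1, 7 and 14 and none was lower, with list medians of 1.05, 0.88 and 0.95. Between entospletinib and vehicle 2 of 13, 3 of 11 and 3 of 10 were lower by 2-fold and none higher, with medians of -0.59, -0.61 and -0.79. The shares over all genes compared were 6.21%, 2.37% and 2.6% higher in vehicle than control and 1.45%, 1.49% and 1.26% lower with entospletinib. The chemokine genes *Ccl3* and *Ccl4* were on the other side of the median gene at day 7, at 0.37 and 0.52. *Nlrp3*, the sensor of the NLRP3 inflammasome, was at 76.3 CPM in control, 194, 144 and 195 CPM in the vehicle pools, and 99.0, 76.4 and 70.8 CPM in the entospletinib pools. Its differences were -0.87, -1.20 and -1.5, and all 3 entospletinib pools lay below all 3 vehicle pools. At day 7 the value was -0.72 in the depth-limited members, and the vehicle day 7 difference of *Nlrp3* from control went from 1.17 to -0.11 with cells thinned to 1000 counts. *Il1b* was at 512 CPM in control, 1384, 767 and 951 CPM in the vehicle pools, and 863, 487 and 613 CPM in the entospletinib pools (-0.58, -0.94 and -0.68). In the depth-limited members its differences were -0.42, -0.30 and -0.53. *Cxcl2*, a neutrophil chemokine, was at 295, 168 and 88.6 CPM in the vehicle pools, and 155, 47.8 and 56.6 CPM in the entospletinib pools (-0.83, -2.10 and -0.69), and its day 7 value was -0.94 in the depth-limited members. *Tnfaip3*, which encodes A20, differed by -1.16, -0.96 and -1.30, but by 0.65 at day 1 in the depth-limited members. *Tnf* was at 34.6 to 70.1 CPM and did not pass 2-fold where it was compared.

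Markers of monocytes and neutrophils moved with the same pools, while those of nonclassical monocytes lay below control at days 7 and 14. The 11 monocyte markers summed to 258 CPM in control, 1116, 882 and 734 CPM at vehicle days 1, 7 and 14 and 513, 662 and 480 CPM at entospletinib days 1, 7 and 14 in the members. *Fn1* and *Ccr2* are on that list. *Ly6c2*, a defining marker of inflammatory monocytes, was at 0 to 6.78 CPM, and *Vcan* at 99.4 CPM at vehicle day 1 and 4.41 to 28.8 CPM in the other pools. The 8 neutrophil markers summed to 106 CPM in control, 571, 230 and 238 CPM in the vehicle pools, and 454, 135 and 151 CPM in the entospletinib pools, *Ly6g* being at 0.961 CPM or less. The 7 nonclassical monocyte markers summed to 319 CPM in control, 664, 258 and 301 CPM at vehicle days 1, 7 and 14, and 586, 243 and 239.6 CPM at entospletinib days 1, 7 and 14. Cells marked as doublets made up 26.2%, 19.4% and 17.1% of members at the vehicle days and 7.55%, 15% and 4.69% at the entospletinib days, and 16.6% in control. Without them, the differences for *Thbs1* were -2.63, -1.56 and -2.63 and those for *Fkbp5* 0.59, 1.44 and 3.45. Those for *Ptgs2* were -3.28, -1.71 and -0.64. The part of other cells' RNA in these values was not tested beyond this.

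Some immediate early genes were higher by 2-fold in vehicle than in control at days 7 and 14. Of the compared genes, 1 of 12, 4 of 13 and 6 of 13 were higher by 2-fold in vehicle than control at days 1, 7 and 14, and 2 of 12, 2 of 13 and 3 of 13 were lower in entospletinib than vehicle. None went the other way by 2-fold. Over all genes compared, 6.21%, 2.37% and 2.6% were higher in vehicle than control and 1.45%, 1.49% and 1.26% lower in entospletinib than vehicle. The day 1 calls turned in sign at other depths, though thinning to 1000 counts left only 109 vehicle and 139 entospletinib members at day 1. For entospletinib over vehicle *Egr1* was at 2.09 and *Fosb* at 0.99 with cells thinned to 1000 counts, and for vehicle over control *Nr4a1* was at -0.69. The list's medians were 0.05, 0.60 and 0.70 for vehicle over control and -0.46, -0.30 and -0.30 for entospletinib over vehicle. *Nr4a1*, a receptor induced by antigen and cytokine signals, was at 70.5 CPM in control, 194, 141 and 165 CPM in the vehicle pools, and 112, 62.4 and 70.8 CPM in the entospletinib pools (-0.68, -1.46 and -1.26). *Fos* was at 155 CPM in control, 309, 253 and 354 CPM in the vehicle pools, and 145, 210 and 243 CPM in the entospletinib pools, and its differences of -0.99, -0.56 and -0.59 did not reach 2-fold. *Hspa1a*, *Hspa1b*, *Dnajb1* and *Hsp90aa1*, the heat shock genes of the list, stayed within 2-fold in each comparison. Dissociation of tissue is known to induce this class of genes, and its part was not tested.

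Transcripts for antigen presentation were lowest at day 1. Of 9 MHC class II presentation genes compared, 6 were lower by 2-fold in vehicle than control at day 1 (list median -1.14) and none at day 7 or 14 (medians -0.13 and -0.07). The shares lower over all genes compared were 5.18%, 1.36% and 1.75% at days 1, 7 and 14. *Ciita*, the master regulator of MHC class II transcription, was at 781 CPM in control, 167, 597 and 651 CPM in the vehicle pools, and 213, 782 and 668 CPM in the entospletinib pools. *H2-Ab1* was at 1346 CPM in control, 592, 972 and 1201 CPM in the vehicle pools, and 867, 1414 and 1268 CPM in the entospletinib pools. The day 1 pools of both treatments were thus the lowest. *Cd74*, the invariant chain, was at 5056 CPM in control, 2787 CPM at vehicle day 1 and 3300 CPM at entospletinib day 1. Between entospletinib and vehicle none of the 9 genes passed 2-fold on any day, with medians of 0.34, 0.10 and -0.01. *Lgmn*, a lysosomal protease on the same list, was higher in vehicle than control by 0.84, 0.83 and 0.80.

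Iron and heme genes were highest at day 1. *Fth1*, the ferritin heavy chain, was at 586 CPM in control, 2354, 582 and 648 CPM in the vehicle pools, and 1902, 683 and 672 CPM in the entospletinib pools. *Ftl1*, the light chain, was at 434 CPM in control and 1876 and 1268 CPM at vehicle and entospletinib day 1. *Hmox1*, heme oxygenase 1, was at 49.7 CPM in control and 257 and 186 CPM at these days. All 3 were higher by 2-fold in vehicle than control at day 1 (1.83, 1.93 and 2.19), 3 of the 5 genes of the list compared, with none at days 7 and 14. The shares higher over all genes compared were 6.21%, 2.37% and 2.6% at days 1, 7 and 14. None of the 5 differed by 2-fold between entospletinib and vehicle. *Hbb-bs*, a hemoglobin chain of red cells, was at 27.1 and 74.9 CPM at vehicle and entospletinib day 1, 22.2 CPM at entospletinib day 14 and 1.34 to 3.00 CPM in the other pools.

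**Figure D5:**
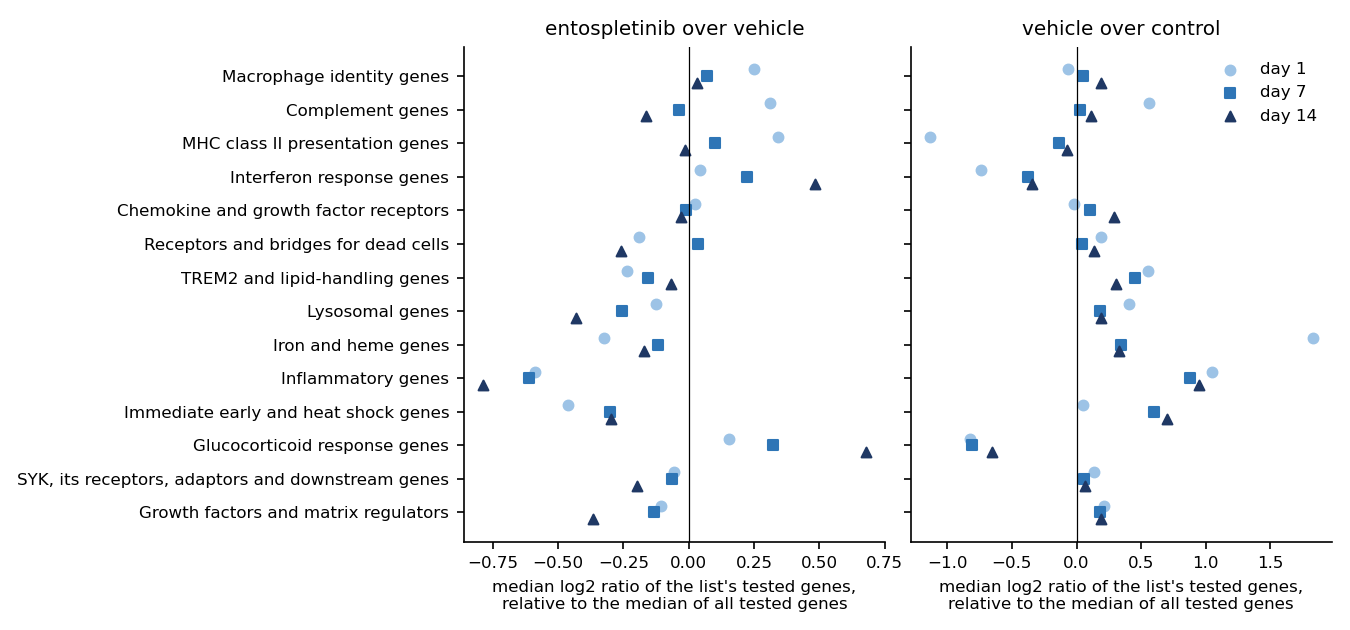
Median log2 ratio of the compared genes of 14 lists in resident macrophages, relative to the median of all compared genes, for entospletinib over vehicle (left) and vehicle over control (right; the x scales differ). Circles are day 1, squares day 7 and triangles day 14. The inflammatory list was at -0.59, -0.61 and -0.79 on the left, MHC class II genes at -1.14 and iron genes at 1.83 at day 1 on the right.

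Lists for lipid handling, lysosomes and the uptake of dead cells held genes higher in vehicle than control. Of lipid genes, 4 of 14 were higher in vehicle than control at day 1, 1 of 12 at day 7 and 2 of 13 at day 14, where 1 was lower, and none passed 2-fold between entospletinib and vehicle. Of lysosomal genes 3 of 16, 1 of 15 and 2 of 15 were higher in vehicle than control at days 1, 7 and 14, and of the dead-cell receptors and bridges 2 of 12, 1 of 12 and 2 of 12, with 1 lower at day 14 and 1 of 13, *Mertk*, lower with entospletinib at day 1. Over all genes compared, the shares higher in vehicle than control were 6.21%, 2.37% and 2.6%. *Abca1*, a cholesterol exporter, was at 167 CPM in control, 286, 483 and 672 CPM in the vehicle pools, and 184, 343 and 400 CPM in the entospletinib pools (-0.54, -0.78 and -0.80). With cells thinned to 1000 counts its day 1 difference was 0.56 and that of vehicle day 1 from control -0.82 in place of 0.59, so both signs turned, and at day 7 the treatments differed by -0.34 in the depth-limited members. *Apoe* was at 1240 CPM in control, 924, 1841 and 2593 CPM in the vehicle pools, and 818, 2062 and 2469 CPM in the entospletinib pools, and differed between the treatments by -0.08, -0.13 and -0.12. *Ctsd*, the protease cathepsin D, was the 1 lysosomal gene past 2-fold between the treatments, at 40.2 CPM in control, 203, 126 and 127 CPM in the vehicle pools, and 93.2, 69.5 and 60.7 CPM in the entospletinib pools (-1.02, -1.15 and -1.11, each in 8 of 8). In the depth-limited members these were -0.80, -0.51 and -0.84. *Lrp1*, a receptor for dead-cell ligands, was at 149 CPM in control, 626, 299 and 280 CPM in the vehicle pools, and 361, 229 and 187 CPM in the entospletinib pools. *Stab1* was at 391 CPM in control and 829, 478 and 618 CPM with vehicle. *Mrc1* was at 604 CPM in control, 533, 999 and 1405 CPM in the vehicle pools, and 354, 971 and 821 CPM in the entospletinib pools, differing by -0.49, -0.33 and -0.83.

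The target of the drug was present throughout. *Syk* was at 479 CPM in control, 512, 448 and 534 CPM in the vehicle pools, and 325, 458 and 448 CPM in the entospletinib pools, differing by -0.56, -0.26 and -0.30. A transcript level does not report kinase activity. Over all genes compared, 1.45%, 1.49% and 1.26% were lower by 2-fold with entospletinib at days 1, 7 and 14. Of the receptors, adaptors and downstream genes of SYK, 2 of 23, 0 of 21 and 1 of 22 were lower by 2-fold with entospletinib and none was higher. Those lower were *Clec4e*, the receptor Mincle, at 129 and 43.2 CPM at day 1 (-1.47), *Malt1*, a signaling protease, at 170 and 75.9 CPM at day 1 (-1.06, 6 of 8) and *Clec7a*, the receptor Dectin-1, at 228 and 116 CPM at day 14 (-1.02). The sign for *Clec4e* turned on thinning to 1000 counts (0.25), and in members of 1000 to 3000 counts none of these 3 passed 2-fold. *Lyn*, *Btk*, *Plcg2* and *Vav1*, the kinases and effectors around SYK, differed by 0.35 or less in size. Among growth factor and chemokine receptors, *Csf2rb*, the common β chain, was at 69.3 CPM in control, 166, 179 and 189 CPM in the vehicle pools, and 51.9, 91.4 and 106 CPM in the entospletinib pools (-1.57, -1.26 and -0.87). When cells were thinned to 1000 counts its differences were -0.06, 0.20 and 0.16, and those of vehicle from control were -0.42 at day 1 and -0.16 at day 7 in place of 1.08 and 1.62. *Ccr2*, the monocyte chemokine receptor, was at 199 CPM in control, 328, 442 and 474 CPM in the vehicle pools, and 210, 511 and 302 CPM in the entospletinib pools. Its differences between the treatments were -0.54, -0.08 and -0.70. Complement and interferon response genes gave none past 2-fold between the treatments, with medians of 0.31, -0.04 and -0.16 and of 0.04, 0.22 and 0.49.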

How the data were processed

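The authors deposited 1 table of transcript counts for 120281 barcodes with a table that names the condition of each cell, made with combinatorial barcoding and the mm10 genome. The values are whole counts with no normalization. Each condition was 1 pool of 3 mice, and the 8 samples are sublibraries that mix all 7 conditions. Cells with more than 300 genes, fewer than 20000 counts and less than 25% mitochondrial counts were kept. Counts of members were summed per condition and given as CPM, counts scaled to an equal total per condition. Ratios were taken for genes that averaged 50 CPM or more, used a prior count of 0.5 and were centered on the median gene. With 1 pool per condition no test was run, and intervals (exact binomial or Poisson) and floors cover counting error only. Members had 31391373 counts in all. Doublets were not removed from the reported values; a score over 30 nearest neighbours with a limit of 0.5 marked them for an alternative. Named genes were the markers, the rule's genes, those the study names for resident macrophages and members of fixed lists. The leading genes of each comparison were added by fixed rules. Those of entospletinib against vehicle were ranked by size among genes with 1 direction in all 8 sublibraries at day 14. Genes of days 1 and 7 also had to go the same way at day 14. The members and lists were chosen with earlier results of these data known. The summing and ratio steps were tested on simulated data. Tools were Python 3.11.15, numpy 2.4.6, scipy 1.17.1, pandas 2.3.3, scikit-learn 1.9.0, matplotlib 3.10.9, R 4.3.3 and edgeR 4.0.16, the last for TMM scaling as an alternative.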

Additional observations from a re-analysis of the deposited data

Results flagged for a closer look

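The difference in share between entospletinib and vehicle went in opposite directions on different days in all 8 sublibraries, with log2 ratios of 1.06 at day 1 and 0.44 at day 7 against -1.72 at day 14. The difference between days was not tested, and the day 14 value was 0.57, -0.11 and -1.33 with cells thinned to 500, 1000 and 2000 counts. A few transcripts turned in the same way, each in all 8 sublibraries of both days, and these differences were not tested either. *Cdk8*, a kinase of the Mediator complex, had relative log2 ratios of entospletinib over vehicle of 1.01, -1.41 and 1.02 at days 1, 7 and 14. *Il31ra*, a cytokine receptor chain, had 2.40, -1.51 and 1.54. *Rpph1*, the RNA of ribonuclease P, had 2.60 at day 1 and -2.34 at day 7. *Rn7sk*, the 7SK RNA, had 1.90 at day 1 and -1.23 at day 14. *Scarna2*, a small Cajal body RNA, had -2.53 at day 7 and 1.69 at day 14. In CPM, *Cdk8* was at 12838 in control, 3940, 35239 and 8803 at vehicle days 1, 7 and 14 and 7416, 16226 and 18474 with entospletinib.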

How the results depend on the processing

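Of 222 values for the 12 shares and gene counts compared, 160 kept their size under the alternatives, 60 moved and 2 reversed. Values are log2 ratios of shares unless said otherwise, and the causes of the moves were not tested. Entospletinib over vehicle at day 1 was 1.57 with cells thinned to 500 counts, 0.27 among C1q cells, 0.24 with no comparison with injury counts, 1.34 without cells of a high doublet score and 0.012 among C1q cells thinned to 1000 counts. At day 7 it was 2.00, 1.62 and 0.59 with cells thinned to 500, 1000 and 2000 counts, and 1.24 among thinned C1q cells. At day 14 it was -1.30 and -2.21 with at least 2 and 4 resident counts, 0.57 (reversed), -0.11 and -1.33 at the 3 thinning depths, -1.46 with a ribosomal limit of 1.5%, -0.71 among C1q cells, -1.89 with no injury comparison and 0.26 (reversed) among thinned C1q cells. Vehicle over control at day 1 was -3.50 and -4.02 with at least 2 and 4 resident counts, -3.52, -3.28 and -3.53 at the 3 depths, -2.80 among C1q cells, -2.17 with no injury comparison, -4.02 by doublet score and -2.65 among thinned C1q cells. At day 7 it was -1.87 and -1.68 at 500 and 1000 counts, -0.28 with other lineage genes left out, -0.33 among C1q cells and -1.37 among thinned ones. At day 14 it was 0.13 and -0.14 with at least 2 and 4 resident counts, -0.30, -0.24 and 0.10 at the 3 depths, 0.19 with other lineage genes left out, -0.23 among C1q cells, -0.14 with no injury comparison and -0.75 among thinned C1q cells. Genes past 2-fold numbered 79, 54 and 77 for entospletinib over vehicle and 409, 118 and 144 for vehicle over control at days 1, 7 and 14. With a mean of at least 20 CPM they were 218, 132, 228, 827, 267 and 285, and with at least 100 CPM 46, 29, 37, 211, 59 and 74. With cells thinned to 1000 counts they were 467, 367, 154, 809 and 410, the last for vehicle day 7, with 17, 20 and 38 genes shared with those reported for entospletinib at days 1, 7 and 14. The doublet score gave 31 at entospletinib day 7, and members with 1000 to 3000 counts gave 171 and 47 for entospletinib at days 1 and 14 and 75 for vehicle day 7, with 20, 15 and 36 genes shared with those reported for entospletinib. Under TMM scaling the day 14 split was 13 higher and 77 lower (14.4% higher) against 35 and 42 (45.5% higher). Leaving out 1 sublibrary in turn gave share ratios of 0.98 to 1.17, 0.41 to 0.47 and -1.78 to -1.68 for entospletinib and -3.83 to -3.77, -0.49 to -0.44 and -0.01 to 0.04 for vehicle, and gene counts of 77 to 97, 51 to 59, 76 to 85, 405 to 415, 117 to 124 and 140 to 145. Of 19536 gene values under alternatives, 17191 stayed within the counting interval of the reported value, 2315 moved out of it and 30 reversed. Reversed is used here of reported values past 2-fold, and sign turns of smaller values are not counted there. Thinning to 1000 counts left 109 members at vehicle day 1, 139 at entospletinib day 1 and 83 at vehicle day 7, so gene values there rest on few counts. With cells thinned to 1000 counts those reversed were, for entospletinib at day 1, *Chil3* 2.09, *Clec4e* 0.25, *Egr1* 2.09, *F13a1* 0.90, *Fosb* 0.99 and *Vcan* 0.61, at day 7 *Csf2rb* 0.20, *F13a1* 0.23 and *Mmp12* -0.16, and at day 14 *Ptgs2* 0.23. For vehicle day 1 they were *Adgre4* -2.84, *Csf2rb* -0.42, *Ifrd1* -0.48, *Nr4a1* -0.69, *Slc12a3* 0.53 and *Tnip3* -0.21, for day 7 *Csf2rb* -0.16, *Il1r2* -0.91, *Nlrp3* -0.11 and *Tnfaip3* -0.97, and for day 14 *Slc12a3* 0.78. In members with 1000 to 3000 counts they were *Cd80* 0.67, *Egr1* 0.072, *Fosb* 2.39, *Tnfaip3* 0.65 and *Tnip3* 1.17 for entospletinib at day 1, *F13a1* 0.24 at day 7, and *Adgre4* -3.50, *Cd80* -0.54 and *Nr4a1* -2.13 for vehicle day 1. The planned scrublet calls were not used because they marked nearly no cells. The doublet score, thinned C1q cells and the range of 1000 to 3000 counts were chosen after seeing the data. No paired analysis was possible because each condition was 1 pool and the sublibraries are portions of every pool.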

Other observations

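*Mmp13*, a collagenase used as an injury gene by the rule, was at 139 CPM in control, 30.9, 30.3 and 16.0 CPM at vehicle days 1, 7 and 14 and 32.7, 90.3 and 46.5 CPM with entospletinib. *Itgam*, which encodes CD11b, was at 151 CPM in control, 591, 403 and 536 CPM in the vehicle pools, and 700, 345 and 309 CPM in the entospletinib pools. Its difference between the treatments was 0.34 at day 1 and -0.51 and -0.84 at days 7 and 14. *Gm19951*, an unnamed transcript, was at 2284 CPM in control, 4403, 7440 and 9193 CPM in the vehicle pools, and 3075, 2734 and 2569 CPM in the entospletinib pools.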
